A study of Mus musculus with 9 samples.

Results

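MyoD1 regions of C2C12 cells that lay close together along the genome were examined as clusters. Peaks of all 6 libraries were merged, and 18774 regions with a peak in at least 2 of the 6 libraries were kept. Neighbouring regions were joined where the gap between them was at most 12.5 kb, which gave 12643 joined stretches. A stretch of 4 or more regions was called a cluster. By this rule 642 clusters were defined, and they held 3666 of the 18774 regions, or 19.5%. Which regions are close together was therefore selected on the peak calls themselves, so the number, size and density of clusters are given as a description with no test.

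C2C12 is a mouse myoblast line, and MyoD1 was mapped by CUT&RUN, in which an antibody directs a nuclease to cut out the DNA around the bound protein. All 6 libraries analysed came from a single clonal line in which the endogenous Myod1 gene carried a 3xFlag-HaloTag and which also carried a doxycycline-inducible 3xFlag-Halo-MyoD1 transgene, both recognised by the anti-Flag antibody. Cells entered differentiation medium without doxycycline (no dox, 3 libraries) or with it (+dox, 3 libraries) and were collected at 6 h, and doxycycline raised both the amount of MyoD1 and the fraction of nuclei that expressed it, which cannot be told apart in bulk libraries. The series' 3 wild-type libraries, which lack the tag, were not analysed here, and the values therefore stand without a background from untagged cells.

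MyoD1 is a basic helix-loop-helix transcription factor that starts the skeletal muscle programme. With an E protein partner it binds the E-box, written CANNTG, and it favours the palindrome CAGCTG. In muscle cells MyoD1 occupies many more sites than there are genes that respond to it, and regulatory elements of genes important to a cell type often lie side by side. A stretch with several MyoD1 regions can therefore be a run of enhancers around a single gene, or a gene-dense stretch with a peak at each promoter.

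The tallest regions of the 5 clusters with the highest summed signal are shown because they were called in all 6 libraries and stood highest in those clusters. Each sequence is from the plus strand (build mm10) and covers the maximum and 50 bases on each side of it, in the list where the region stood highest. Capitals mark CAGCTG, which reads the same on both strands, so a single scan covers both.
Plec 1, in Plec outside its coding exons, chr15:76207026-76207126: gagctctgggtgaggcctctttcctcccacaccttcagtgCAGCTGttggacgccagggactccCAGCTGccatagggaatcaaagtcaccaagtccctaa
Plec 2, in Plec outside its coding exons, chr15:76196576-76196676: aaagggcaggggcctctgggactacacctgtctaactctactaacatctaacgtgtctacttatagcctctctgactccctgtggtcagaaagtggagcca
Plec 3, in a coding exon of Plec, chr15:76190126-76190226: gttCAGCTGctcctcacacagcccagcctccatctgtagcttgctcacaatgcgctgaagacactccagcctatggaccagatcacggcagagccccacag
Calr, 42 bp from the Calr start, chr8:84846926-84847026: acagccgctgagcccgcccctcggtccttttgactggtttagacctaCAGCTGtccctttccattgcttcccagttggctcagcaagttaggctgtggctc
Nfix 1, in Nfix outside its coding exons, chr8:84774576-84774676: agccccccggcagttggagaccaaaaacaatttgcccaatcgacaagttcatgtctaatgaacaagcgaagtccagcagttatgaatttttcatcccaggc
Nfix 2, in Nfix outside its coding exons, chr8:84730776-84730876: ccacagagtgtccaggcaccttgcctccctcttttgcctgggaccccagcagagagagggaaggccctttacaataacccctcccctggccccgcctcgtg
Fgfr4 1, between genes, 19036 bp from the Fgfr4 start, chr13:55171626-55171726: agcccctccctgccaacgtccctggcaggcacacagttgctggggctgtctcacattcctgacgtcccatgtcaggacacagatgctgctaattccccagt
Fgfr4 2, between genes, 16586 bp from the Fgfr4 start, chr13:55169176-55169276: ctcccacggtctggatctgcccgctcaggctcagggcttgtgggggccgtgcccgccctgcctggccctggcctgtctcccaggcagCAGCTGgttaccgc
Nanos3, between genes, 6959 bp from the Nanos3 start, chr8:84192126-84192226: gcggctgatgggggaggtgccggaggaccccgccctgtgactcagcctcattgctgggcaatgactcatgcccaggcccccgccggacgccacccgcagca
Zswim4, 171 bp from the Zswim4 start, chr8:84237176-84237276: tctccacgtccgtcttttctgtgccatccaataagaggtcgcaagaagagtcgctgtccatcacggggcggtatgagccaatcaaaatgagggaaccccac
Sept9 1, in Sept9 outside its coding exons, chr11:117296576-117296676: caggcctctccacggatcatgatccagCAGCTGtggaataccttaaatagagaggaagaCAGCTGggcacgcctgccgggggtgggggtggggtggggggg
Sept9 2, in Sept9 outside its coding exons, chr11:117317926-117318026: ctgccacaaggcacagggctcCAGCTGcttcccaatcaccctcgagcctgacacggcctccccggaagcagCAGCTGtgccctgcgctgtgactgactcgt
CAGCTG was found in 6 of these 12 windows, in 3 of them 2 times, and some form of CANNTG was found in 9. Over all 18773 regions on the assembled chromosomes, CAGCTG was present in 24.6% of windows of the same length. The AP-1 site TGANTCA was found only in the Nanos3 window among the 12 and in 6.84% of all regions.

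The cluster that spans the 3' part of Plec, which encodes the cytoskeletal linker plectin, had the highest mean percentile of summed signal. Within each list the total signal of a cluster was ranked among all 12643 stretches, so the percentile is high partly because a cluster sums several regions. The Plec cluster (chr15:76169251-76211500, 8 regions) stood at percentiles of 100, 99.98 and 99.99 in no dox and 99.99, 100 and 100 in +dox. Its signal was uneven, since the top region held 65.5% of it on average over the lists, and only 3 of its 8 regions were called in all 6 libraries. Those 3 regions stood side by side. Their maxima lay at percentiles of 83.1 to 99.99 among the peaks of each list, and the other 5 regions never passed 54.0. CAGCTG lay within 100 bp of the maximum in 6 of the 8 regions.

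The Fgfr4 cluster (chr13:55168351-55191100, 5 regions) began at the 3' end of Fgfr4, a growth factor receptor gene of myoblasts, and ran downstream of it. The region of the window named Fgfr4 1 was the tallest of the cluster. Its maximum stood at a percentile of 99.99 or above among the peaks of each list, and the window held no CAGCTG. The neighbouring region, which did hold CAGCTG, stood at percentiles between 98.2 and 99.7. Without no dox replicate 3 or without +dox replicate 3 the longest stretch there held 3 regions and fell short of a cluster.

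In the Sept9 cluster (chr11:117291251-117327550, 7 regions), which lies wholly within the gene for the cytoskeletal GTPase septin 9, 4 regions were called in all 6 libraries. Its tallest 2 regions stood at percentiles of 98.0 to 99.8 in every list, and both windows held CAGCTG 2 times. The highest region of the Lama5 cluster, near the gene for a laminin chain of the basement membrane, stood at percentiles of 98.9 to 99.7 and carried 88.2% of the signal of its 6 regions. Over all 642 clusters the top region held a median of 57.5% of the summed signal. The lowest share, 15.5%, was that of the largest cluster.

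**Figure D1:**
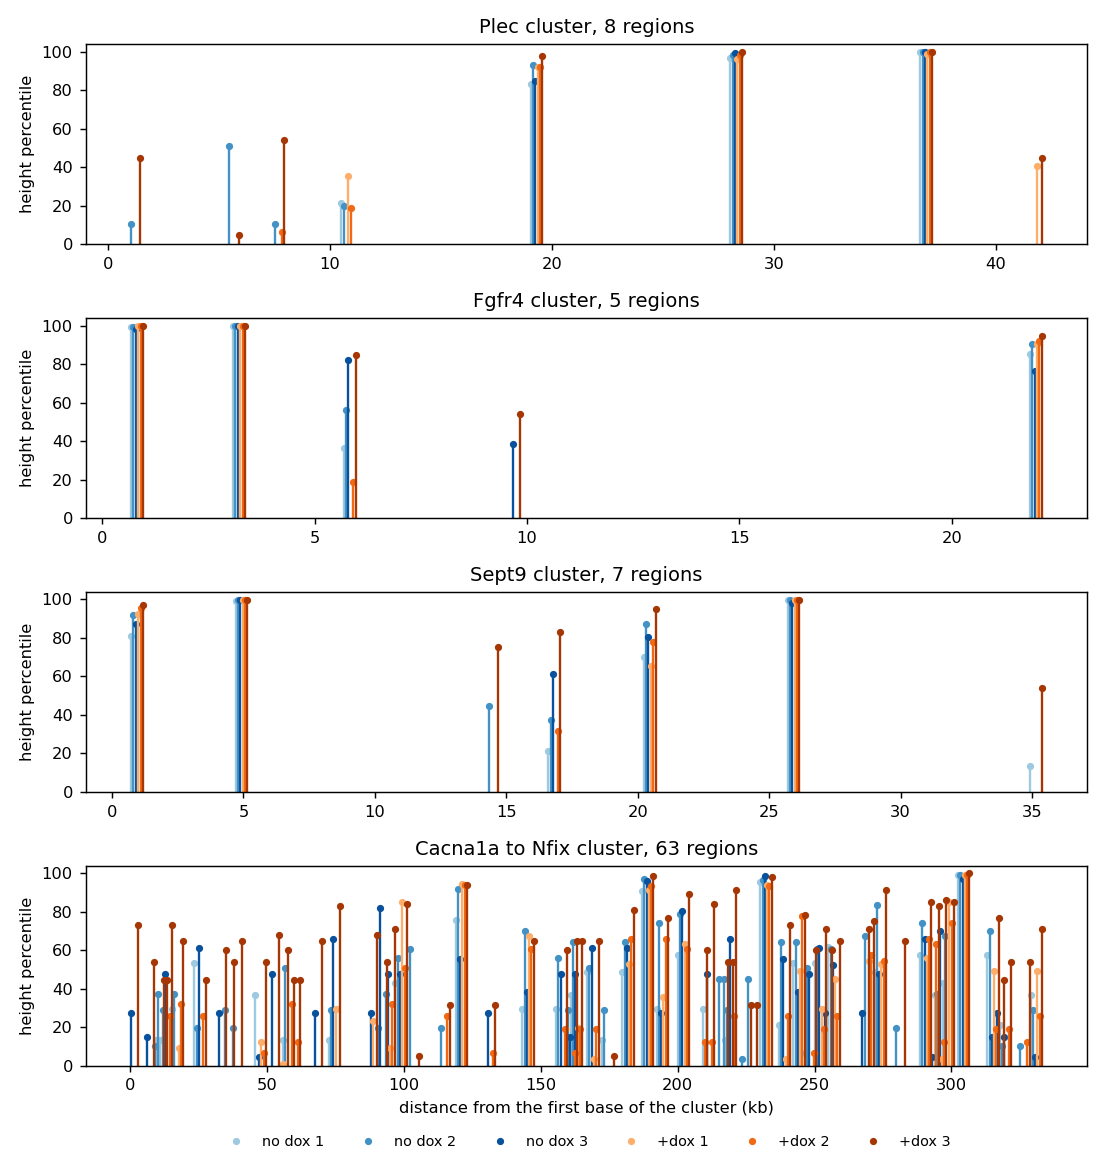
Height of each called region in the Plec, Fgfr4, Sept9 and largest clusters, as the percentile of its maximum signal among all peaks of the same list (y axis) against distance from the first base of the cluster in kb (x axis), with a line and point for each library that called it. In the Plec, Fgfr4 and Sept9 clusters a few regions near the 100th percentile in every library stand beside lower regions, not all of them called in every library. The cluster of 63 regions has many regions of middling height.

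Clusters were mostly small. Of the 642, 280 (43.6%) held 4 regions, the median was 5, and 36 held 10 or more. The median cluster spanned 27.8 kb, with a range from 5.45 to 332 kb, and together the spans covered 20.2 Mb or 0.743% of the genome. Gaps within clusters had a median of 3.75 kb. The largest gap inside a cluster was 12.5 kb, and the nearest region left outside lay 12.55 kb away. Just below the size threshold were 605 stretches of 3 regions. In no dox replicate 1 the summed signal of the 3-region stretches had a median percentile of 80.1 and that of the 4-region clusters 88.2, and in +dox replicate 1 the values were 77.6 and 86.6.

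The regions of a cluster were not uniformly reproducible. All 6 libraries called 1123 of the 3666 regions, or 30.6%, against 24.6% of the regions outside clusters. Another 1164 regions, 31.8%, were called in the minimum of 2 libraries, much the same as the 31.9% of regions outside clusters. In 93.0% of these 1164 regions +dox replicate 3 was a caller, a share that was not computed outside clusters. That library had the greatest depth (8030000 alignments, against 2868000 to 4667000 in the other five, as recovered from the smallest step of the signal) and the longest list, 53661 peaks against 9389 to 13877. Without it 316 clusters with 1673 regions remained under the same rule. With every list shortened to 9389 peaks of highest total signal, 202 clusters with 1038 regions remained. Of the 53 clusters chosen for naming, 36 still held a cluster without +dox replicate 3 and 27 with lists of equal length. Only 2 clusters, named here after their values were seen, had each of their regions called in all 6 libraries: the Tpcn1 and Iqcd cluster with 6 regions and the Sertad1 and Sertad3 cluster with 4.

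Clusters were unevenly spread over the chromosomes. Chromosome 8 held 623 of the 3666 cluster regions (17.0%) and chromosome 15 held 448 (12.2%), while these chromosomes make up 4.75% and 3.82% of the genome. On chromosome 8, 41.0% of all kept regions lay in clusters, and on chromosome 15, 35.7%. The other chromosomes ranged from 2.68% on chromosome X to 25.5% on chromosome 17. The excess was present before joining, because chromosome 8 had 1.46 kept regions for each protein-coding gene and chromosome 15 had 1.6, whereas the others ranged from 0.35 to 1.10. These are positions of peaks in a single clonal line, and no input or untagged library was analysed here beside them.

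**Figure D2:**
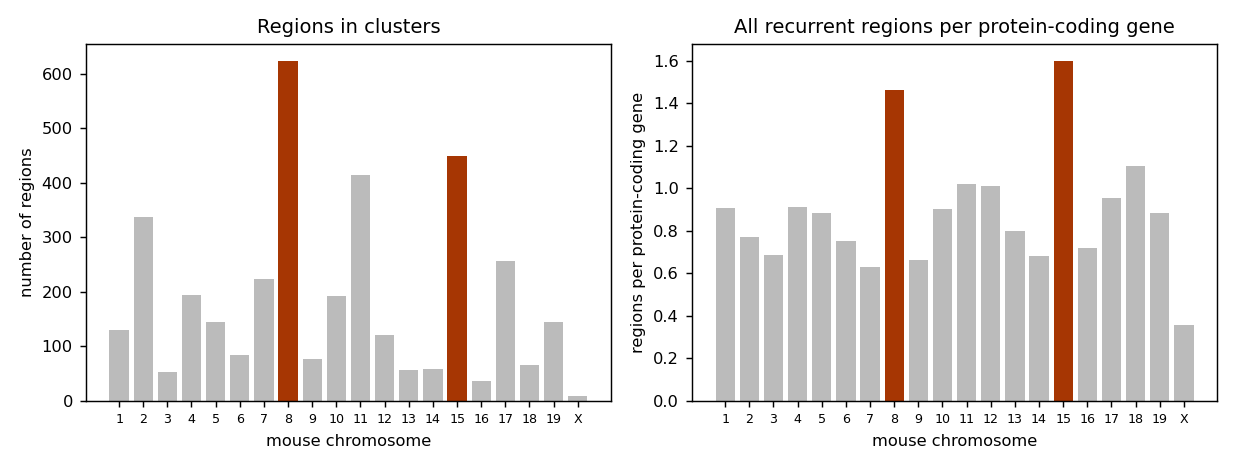
Number of regions in clusters (left) and number of all regions called in at least 2 libraries for each protein-coding gene (right) on each mouse chromosome, with chromosomes 8 and 15 in dark colour. Chromosome 8 with 623 cluster regions and chromosome 15 with 448 stand highest on the left, and at 1.46 and 1.6 regions per gene they also stand highest on the right.

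The excess on chromosome 8 was concentrated between 82 and 96 Mb, an interval marked out after the values had been seen. This interval, 0.514% of the genome, held 428 cluster regions in 39 clusters, or 11.7% of all. It had 3.80 kept regions for each of its 174 protein-coding starts, against 0.832 in the rest of the genome, and 64.8% of its kept regions were in clusters. All of the 5 largest clusters lay there. In the window from 84 to 86 Mb 193 of 216 kept regions were in clusters. The cluster regions of this interval had lower maxima than those elsewhere: their median percentile was 36.6 against 57.7 in no dox replicate 1 and 45.3 against 58.4 in +dox replicate 1. CAGCTG lay near the maximum in 28.5% of them, against 40.3% of cluster regions elsewhere.

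The largest cluster (chr8:84541751-84873750, 332 kb) held 63 regions and overlapped 13 protein-coding genes, from Cacna1a, a neuronal calcium channel gene, past Ier2, an immediate early gene, to Nfix, a transcription factor with a role in fetal muscle, and Calr, a calcium-binding chaperone. Its regions were called 34, 47 and 43 times in no dox and 28, 40 and 63 times in +dox. Its tallest region lay at the Calr promoter, at percentiles of 98.8, 99.1 and 96.8 in no dox and 98.9, 98.9 and 99.9 in +dox. The next in size (chr8:84891601-85097450) held 48 regions over 20 genes, among them Klf1, Prdx2 and the AP-1 gene Junb, with 27, 39 and 31 regions called in no dox and 20, 27 and 48 in +dox. The tallest of these 48 regions lay 2558 bp from the Junb start, at percentiles of 97.3, 96.8 and 94.5 in no dox and 98.7, 98.4 and 99.03 in +dox. In both clusters the +dox count was highest in replicate 3 and below the no dox range in replicate 1. Without +dox replicate 3, the 63-region cluster broke into 4 clusters that held 49 of 51 regions, the largest of 31, and the Junb cluster kept 40 regions.

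A cluster of 33 regions around Prkaca, the catalytic subunit of protein kinase A, and Rfx1 had 20, 23 and 26 regions called in no dox and 14, 14 and 31 in +dox. Outside chromosome 8 the largest clusters were that of 20 regions from Med16 to Abca7 on chromosome 10, that of 17 regions over Socs3, a cytokine signalling inhibitor, Pgs1 and Dnah17 on chromosome 11, and that of 16 regions at the developmental signalling gene Wnt7b on chromosome 15. At Wnt7b, 7, 11 and 7 regions were called in no dox and 9, 10 and 16 in +dox. Gnao1 on chromosome 8 also had 16 regions, but a single region inside the gene held 74.4% of their signal. The 14-region Dagla cluster on chromosome 19 had 3, 9 and 8 regions called in no dox and 6, 8 and 14 in +dox.

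Most cluster spans overlapped a protein-coding gene, a share that was not computed for the other joined stretches. Of the 642, 56 overlapped no protein-coding gene, 274 overlapped a single gene and 312 overlapped at least 2. The clusters overlapped 1306 of 21924 protein-coding gene names, 5.96% of all, which is the background for the counts that follow. There were 113 clusters that lay wholly inside a gene and 109 of the others that overlapped 4 or more genes. These kinds differed in make-up: in clusters over 4 or more genes 59.2% of regions lay within 1 kb of an annotated start and 31.6% had CAGCTG near the maximum, whereas in clusters without a protein-coding gene the values were 8.33% and 48.2%. Inside single genes they were 18.7% and 42.4%.

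The 10 gene lists relevant to myoblasts and to the differentiation of muscle were compared with the clusters, and 58 of their 251 genes (23.1%) overlapped a cluster. The lists were drawn up with earlier results of these data known, so the counts are descriptive. Among the myogenic regulators and partners, genes that overlapped a cluster included Mef2b, Tcf3, Id1, Id3, Heyl and Hdac5. Id1 and Id3 encode inhibitors that sequester E proteins away from MyoD1. At Id1 (chr2:152726301-152742300, 6 regions) 5, 6 and 3 regions were called in no dox and 5, 5 and 6 in +dox, and CAGCTG lay near the maximum in 5 of 6. The Id3 cluster (chr4:136134151-136148700) had 4 regions, 3 of them called in all 6 libraries, and none had CAGCTG near the maximum. In all 4 regions of the cluster at Heyl, a Notch target gene, CAGCTG was present. Tcf3, which encodes the E protein partners E12 and E47, shared a cluster of 6 regions with Mex3d, Mbd3 and Uqcr11. The top region held 64.7% of the signal, and the region with the highest mean height percentile lay 76 bp from the Mbd3 start. The regions inside Tcf3 were each called in 2 libraries, at mean height percentiles of 8.52 and 12.9 in those lists.

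The genes Myod1 and Myog themselves were not in clusters. Myod1 had 2 kept regions within its body and 10 kb on each side, and Myog had 1. Cdh15 and Mcam, both cell surface adhesion genes, also had 1 region each, Mef2a had 2 and Cadm4 had 3, in stretches of at most 2 regions.

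The list with the largest share in clusters was that of AP-1 and early response genes, 10 of 18 or 55.6%: Fos, Fosb, Fosl1, Junb, Jund, Maff, Ier2, Ier3, Zfp36 and Nr4a1. Ier2 lay in the 63-region and Junb in the 48-region cluster of chromosome 8, and Jund lay elsewhere on that chromosome. The Nr4a1 cluster (chr15:101220201-101284750), at a nuclear receptor gene of the immediate early class, held 12 regions with 8, 7 and 6 called in no dox and 7, 11 and 10 in +dox. The Maff cluster, at a small Maf factor gene, held 11 regions with 5, 5 and 7 called in no dox and 4, 5 and 10 in +dox. At Fosl1, which encodes the AP-1 subunit Fra-1, 5 of 7 regions were called in all 6 libraries and 5 had CAGCTG near the maximum. The Zfp36 and Fosb clusters, of 5 and 4 regions and like Heyl named after their values were seen, had no CAGCTG near any maximum.

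Genes of the contractile apparatus and of muscle excitation were represented by smaller clusters. Of 34 sarcomere genes, 4 overlapped a cluster, namely Tnnt1, Tnni1, Myom1 and Xirp1. The Tnni1 cluster, shared with Csrp1 and Phlda3, had 8 regions, 6 of them with CAGCTG, and percentiles of summed signal between 96.3 and 96.9 in all libraries. Of 15 excitation-contraction coupling genes, 5 did (Cacnb1, Cacng1, Jsrp1, Stac3 and Srl), and Cacnb1, the beta subunit gene of the muscle calcium channel, lay across 2 clusters of 8 regions each. The cluster that also spans Rpl19 and Stac2 had percentiles of 84.5, 87.4 and 83.2 in no dox and 89.6, 91.3 and 92.2 in +dox, which do not overlap. Of all joined stretches 3.31% were higher in +dox in this way and 5.11% lower. Among the other list clusters named here, those at Myh9 and Id1 were also higher in +dox without overlap, and those at Mymx and Ccnd1 lower. The clusters at Dok7 and Cacng1, of 4 regions each and named after their values were seen, were higher in +dox without overlap too. Of 20 genes of the neuromuscular junction and of fusion, 5 did: Chrnd and Chrng, acetylcholine receptor subunits that share a cluster of 6 regions, Dok7, and the fusion genes Mymk and Mymx. In the Mymx cluster (7 regions over 5 genes) 3, 7 and 4 regions were called in no dox and 4, 6 and 5 in +dox. Its percentiles were 98.4, 99.01 and 98.8 in no dox and 97.9, 98.1 and 98.2 in +dox.

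Of 30 genes of cytoskeleton and matrix, 9 overlapped a cluster: Actb, Des, Myh9, Col1a1, Col4a1, Col4a2, Col5a1, Serpinh1 and Lama5. Myh9, non-muscle myosin heavy chain, had 14 regions along its length, with 7, 11 and 12 called in no dox and 5, 9 and 14 in +dox. The region at its start and another in the gene body stood at percentiles of 85.9 to 99.7 in every library. At Col5a1 8 of 13 regions had CAGCTG near the maximum. Of 35 growth factor signalling genes, 7 were in clusters (Fgfr2, Fgfr4, Tgfb1, Smad3, Notch1, Jag2 and Wnt9a). On the adhesion list 6 of 28 genes were in clusters, namely Cdh23, Itga3, Itga7, Cd151, Pcdh1 and Lmna. Lmna, though on that list, encodes nuclear lamins and is not an adhesion gene. Of 18 cell cycle exit genes 3 were in clusters (Ccnd1, Ccnd3 and Btg2), and of 19 muscle energy metabolism genes 2 (Eno3 and Slc2a1). Fgfr2 had 10 regions, with 1, 5 and 7 called in no dox and 5, 6 and 10 in +dox. At Btg2, an antiproliferative gene, all 7 regions were in the +dox consensus (a peak in at least 2 of 3 libraries of the group) and 5 in the no dox consensus. Smad3, a mediator of TGF-beta signals, lay in 2 clusters of 4 and 6 regions. The Itga3 integrin gene overlapped 2 clusters of 4 and 10 regions, the smaller shared with Pdk2, and only 4 of their regions lay in Itga3 itself. The larger had 4, 5 and 9 regions called in no dox and 5, 5 and 10 in +dox. The region with the highest mean height percentile lay 172 bp from the Pdk2 start in the smaller cluster. In the larger it lay outside Itga3, nearest to the Dlx3 start at 19393 bp. The Hdac5 cluster had 10 regions, of which 3 were in the no dox consensus and 7 in the +dox consensus, and the Pcdh1 and Ccnd1 clusters had equal numbers in both.

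Cdh23, a cadherin gene, lay in 2 clusters, of 14 regions (chr10:60303201-60355800) and of 5 (chr10:60373551-60387250). Of these 19 regions, 14 had their maximum at most 50 bp from a coding exon. In no dox replicate 2 all 14 exon regions were called at percentiles of 96.8 to 99.99. No dox replicates 1 and 3 called 2 and 8 of them, and +dox replicates 1 to 3 called 10, 3 and 7, with medians at most at the 69.7th percentile. Without no dox replicate 2 the clusters had 9 and 4 regions. The cause was not tested. Over all clusters, peak maxima near a coding exon made up 9.19% to 14.8% of cluster peaks, against 6.81% to 10.8% of peaks in other regions, and only 2.09% of the genome is that close to a coding exon.

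Cluster regions were next set against the regions outside clusters in features the rule had not used. Promoter peaks, centred within 1 kb of an annotated start, were less frequent in clusters. In no dox they made up 42.1, 39.8 and 31.7% of cluster peaks and 61.4, 59.1 and 40.9% of peaks in other regions, and in +dox 46.5, 41.5 and 36.4% against 66.1, 59.2 and 51.0%. The mean difference was −16.6 percentage points (SD 4.04, n = 6), lower in 6 of 6 libraries (two-sided exact sign-flip permutation over libraries, p = 0.0313, the smallest they allow, Benjamini-Hochberg adjusted p = 0.15 over 6 tests). With this many libraries no adjusted p over the 6 tests could fall below 0.05, whatever the data. The adjusted values for promoters, GC content and CAGCTG therefore cannot decide whether clusters differ. The same sites recur in the lists, so the libraries are not independent in sequence. GC content within 100 bp of the maximum differed by −0.99 percentage points (SD 0.558) and was lower in clusters in 5 of 6 libraries (exact sign-flip test, p = 0.0625, adjusted p = 0.15). Away from promoters it was instead higher in clusters, by 2.23 percentage points in 6 of 6 libraries (exact sign-flip test, p = 0.0313 unadjusted). Cluster regions were wider, with a median of 1550 bp against 1300 bp, and width enters the gaps that the joining rule used.

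The E-box CAGCTG within 100 bp of the maximum was found in 43.1, 38.0 and 33.9% of cluster peaks in no dox and in 39.0, 41.6 and 38.0% in +dox. In other regions it was found in 38.7, 35.6 and 35.1% in no dox and in 33.9, 37.4 and 37.2% in +dox. The difference was 2.62 percentage points (SD 2.43) and positive in 5 of 6 libraries (exact sign-flip test, p = 0.0938, adjusted p = 0.15). It was 1.63 without +dox replicate 1 and 0.896 for clusters of 6 or more regions. Counted over the whole peak it was 5.44, and for any CANNTG within 100 bp 4.97, both positive in 6 of 6 libraries. Among promoter peaks CAGCTG was more frequent in clusters in 6 of 6 libraries, by 3.57 percentage points on average, for example 32.9% against 27.9% in no dox replicate 1. Away from promoters it was less frequent in clusters in 6 of 6 libraries, by 5.14 percentage points, for example 50.6% against 56.0% in the same library (each exact sign-flip p = 0.0313 unadjusted). TGANTCA behaved alike, at 6.58% against 4.56% of promoter peaks and 18.3% against 22.0% of other peaks in no dox replicate 1. At least a single CAGCTG region was present in 592 of the 642 clusters, and 50 had none.

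**Figure D3:**
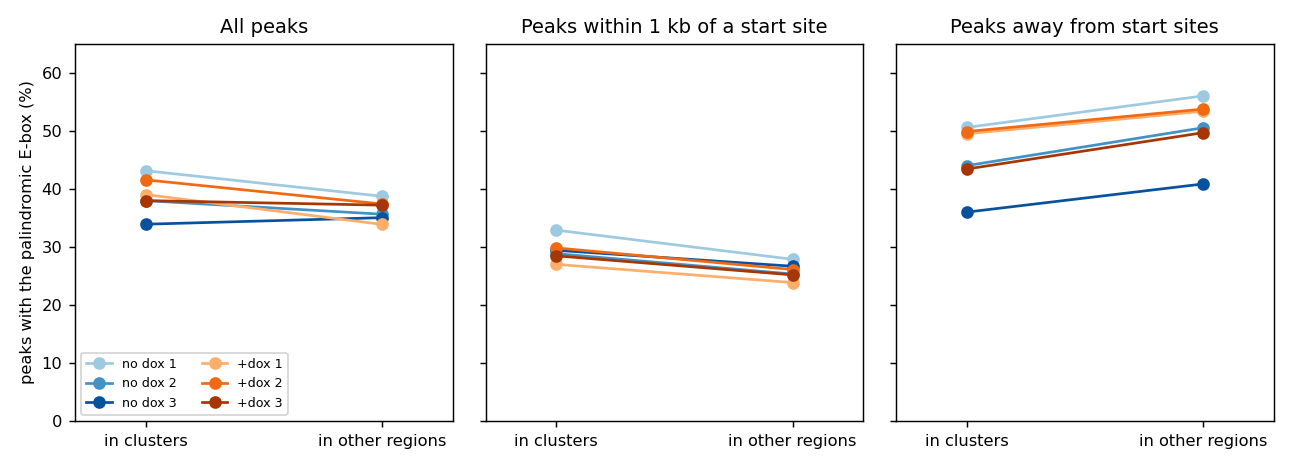
Percentage of peaks with CAGCTG within 100 bp of the maximum (y axis) in clusters and in other regions, for all peaks, for peaks within 1 kb of an annotated start and for peaks farther away. Each line joins the values of a library. Among promoter peaks all 6 lines fall from clusters to other regions, and away from promoters all 6 rise, with no dox replicate 1 going from 50.6% to 56.0%.

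The comparison of no dox with +dox asked whether elevated MyoD1 altered how the clusters were filled. In no dox 48.5, 67.5 and 65.4% of cluster regions were called, and in +dox 55.3, 62.3 and 97.2%. These shares rest on the peak calls that chose the regions, so they and the values relative to other regions are given as a description with no test. The groups overlapped, and the difference of 11.1 percentage points was smaller than the SD of 22.5 within +dox. It was 1.82 without +dox replicate 3, 4.79 without no dox replicate 1, 18.7 without +dox replicate 1 and −2.63 with lists of equal length.

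Relative to regions outside clusters within the same list, cluster regions were called more often by 3.67, 5.51 and 9.26 percentage points in the no dox libraries. In +dox the differences were −4.82, −2.16 and 0.593. The groups did not overlap, and their means differed by −8.28 percentage points (6.15 ± 2.85 in no dox and −2.13 ± 2.71 in +dox, SD, n = 3 each). Under the alternatives the difference lay between −10.9 and −5.83, and without chromosomes 8 and 15 it was −6.76 (an alternative added after the data were seen). The −5.83 was with lists of equal length, where the groups did overlap. In the interval from 82 to 96 Mb of chromosome 8 cluster regions were called in 41.8, 62.6 and 72.2% in no dox and 36.0, 46.0 and 98.6% in +dox. At the level of consensus, 773 of 3666 cluster regions (21.1%, Wilson 95% interval 19.8 to 22.4, counting error only) were in the +dox set and not in the no dox set, against 30.1% of other regions (29.4 to 30.9), and 250 (6.82%) were in the no dox set only, against 4.70%.

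**Figure D4:**
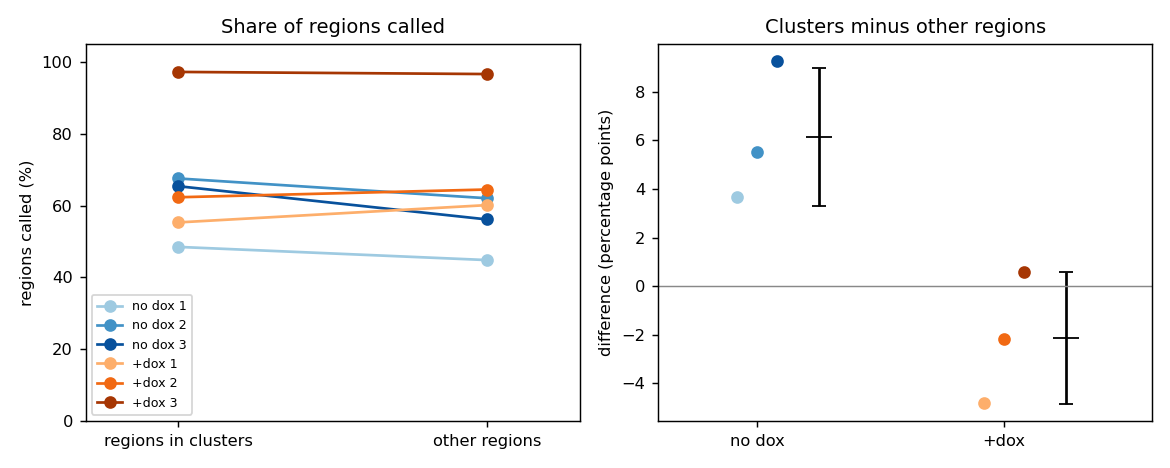
Left, percentage of regions called in each library (y axis), in clusters and in other regions, with a line for each library. Right, difference between clusters and other regions in percentage points for each library, with mean and SD of the 3 libraries of a group in black. The 3 no dox libraries lie between 3.67 and 9.26, all above the 3 +dox libraries at −4.82 to 0.593.

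Clusters took 25.7, 26.1 and 24.9% of the total signal of the no dox lists and 22.9, 25.05 and 18.1% of the +dox lists. The difference of −3.55 percentage points rested mostly on +dox replicate 3, without which it was −0.675. Cluster by cluster, 360 of 642 (56.1%) had more regions in the +dox consensus, 81 (12.6%) had more in the no dox consensus and 201 had equal numbers. Of all joined stretches 35.9% gained and 5.45% lost in this sense, but a stretch of 1 region can change by only 1, so the shares are not on the same footing. The direction turned when either of 2 libraries was left out: without +dox replicate 3 the counts were 60 gaining and 175 losing, and without +dox replicate 2 they were 181 and 207. A group left with 2 libraries needed both for its consensus, against 2 of 3 in the other group. This by itself lowers its consensus, and its part in the turn was not tested. Without no dox replicate 1, 2 or 3 the counts were 421 and 42, 463 and 6, and 378 and 10. With lists of equal length they were 63 and 68.

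Few clusters changed rank in a way that separated the groups. In 27 clusters (4.21%) every +dox percentile of summed signal exceeded every no dox percentile, against 3.31% of all joined stretches, and in 23 (3.58%) every +dox percentile was below, against 5.11%. These shares lie near the background, so the following clusters are given as the extremes of that list and not as changes that passed a test. Of the 10 described, only those at Sema6b, Mamdc4 and Ndrg4 still held a cluster without +dox replicate 3, and only those at Echs1 and Ndrg4 with lists of equal length. Phldb1, which encodes a microtubule- and membrane-associated protein, had the largest mean rise, with percentiles of 23.7, 45.6 and 19.3 in no dox and 50.7, 82.2 and 62.6 in +dox. Its 4 regions were called 0, 1 and 0 times in no dox and 1, 3 and 4 times in +dox. A cluster with no peak in a list takes the tied rank of all stretches without a peak there. That rank was 23.7 in no dox replicate 1 and 19.3 in no dox replicate 3, so these values are not measured signal. The Gprc5a cluster stood at 23.7 (no peak), 84.2 and 48.9 in no dox and at 85.1, 87.8 and 88.2 in +dox. No dox replicate 2 thus lay just below the +dox range. At Sema6b and Tnfaip8l1 the percentiles were 51.0, 34.3 and 46.7 in no dox and 83.9, 86.1 and 62.0 in +dox. The Sdc1 cluster, at the gene for the heparan sulphate proteoglycan syndecan-1, had 0, 1 and 1 of 4 regions called in no dox and 2, 4 and 3 in +dox, and the cluster over Echs1, Paox and Mtg1 had 1, 0 and 3 called in no dox and 3, 2 and 4 in +dox.

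In the opposite direction, the cluster at Zfp423, a zinc finger factor of adipocyte precursors, stood at percentiles of 76.6, 82.2 and 73.9 in no dox and 41.5, 59.95 and 72.3 in +dox. The cluster over Mamdc4, Phpt1, Ajm1 and Rabl6 stood at 86.1, 85.5 and 79.7 in no dox and 48.0, 74.9 and 77.2 in +dox. At Troap, C1ql4 and Dnajc22 2, 4 and 5 of 7 regions were called in no dox and 1, 1 and 6 in +dox. The Dnah17 cluster next to that at Socs3 stood at 77.4, 70.7 and 66.1 in no dox and 60.4, 46.5 and 64.4 in +dox. At Ndrg4 and Setd6 the percentiles were 88.8, 94.5 and 92.6 in no dox and 78.0, 84.3 and 88.5 in +dox, so that the lowest no dox and the highest +dox values nearly met.

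**Figure D5:**
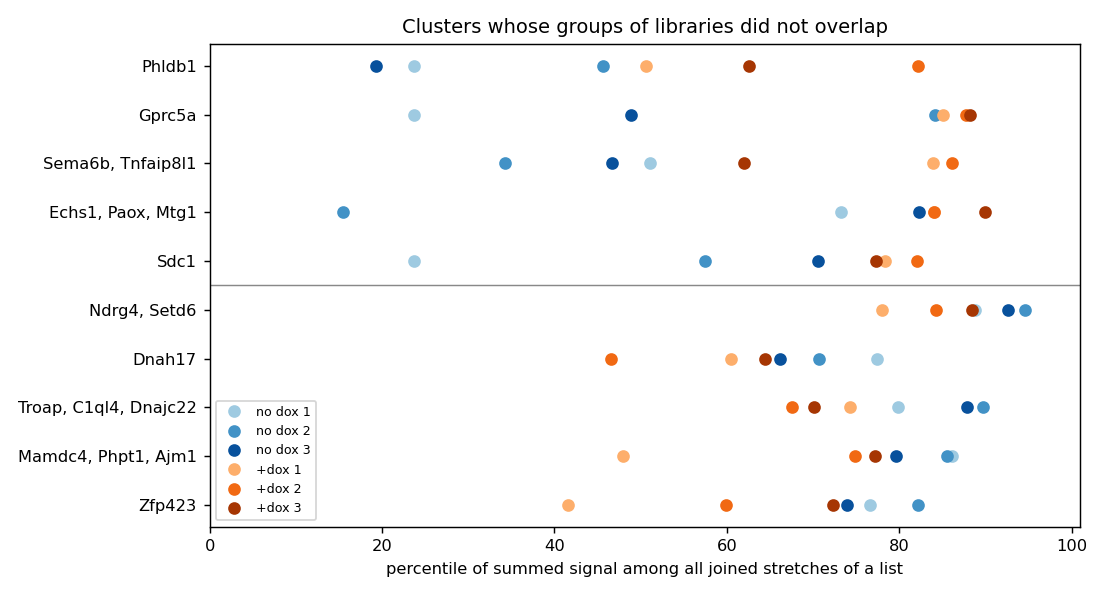
Percentile of summed signal among all 12643 joined stretches of a list (x axis) for the 10 clusters whose groups did not overlap and differed most, named by their genes (at most 3 are written), with a point for each library. The upper 5 clusters are higher in +dox, led by Phldb1 with a mean difference of 35.6, and the lower 5 are higher in no dox, with Zfp423 at −19.6. A cluster with no peak in a list is drawn at the tied rank of all stretches without a peak there.

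The height of individual regions was compared in the 4838 regions called in all 6 libraries, of which 1123 were in clusters. After each library was centred on its median, limma found 0 regions past an adjusted p of 0.05, 0% of all tested and 0 in clusters. At an unadjusted p under 0.05 there were 124 regions, 2.56% of all, and 40 cluster regions, 3.56%. Fitted differences in cluster regions had a median of −0.04 on the log2 scale of maximum signal, a median standard error of 0.43 and a range from −1.55 to 1.36. With the replicate number as a block, 1 region passed, outside the clusters, and an unadjusted p under 0.05 was found for 627 regions (12.96%), 170 of them in clusters (15.1% of cluster regions). Without centring the median difference in cluster regions was 0.89 log2 and in all regions 0.91, with 0 regions past the threshold. The maximum signal was scaled to the alignments of each library by the authors, so the shift is one of scaled signal.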

How the data were processed

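Anti-Flag CUT&RUN of 6 libraries was analysed, 3 no dox and 3 +dox. The authors aligned reads to mm10, scaled coverage to library size as CPM, removed blacklisted regions and called peaks in each library with SEACR in relaxed mode (deepTools is also named in the submitters' processing notes), and the deposited lists give each peak's total signal and maximum signal. Depth was 2868000 to 8030000 alignments, recovered from the signal steps.

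Lists were merged, and regions called in 2 of 6 libraries were joined across gaps up to 12.5 kb. Clusters needed 4 regions. Genes were from GENCODE, build mm10. Clusters were compared with other regions by exact sign-flip tests (Benjamini-Hochberg over 6 tests, 3 of them between groups in measures built on the calls that chose the regions, given as values only), and region heights by limma 3.58.1 in R 4.3.3, after checks on simulated data. Python 3.11.15 and SciPy 1.17.1 were used. The labels call the libraries of a group biological replicates, all of a single clonal line, so p-values measure the spread between cultures of that clone. Intervals cover counting error only.

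Deviations of same-numbered no dox and +dox libraries correlated at 0.485, 0.267 and 0.628 over 4838 regions. No dox replicate 1 with +dox replicate 2 gave 0.265, and no dox replicate 2 with +dox replicate 1 gave 0.219. Replicate 3 with another number gave −0.560 to −0.321, so replicate 3 stood apart more clearly than 1 from 2. The numbers, which come from the labels, were taken to pair the libraries in the alternatives with a block. The main limma fit had no block.

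Clusters named were the 10 with most regions, the 5 with the highest mean percentile, the 5 in each direction with the largest difference among those without overlap, and those at listed genes with 6 or more regions, or at Myod1, Myog, Mef2a, Id3, Cdh15, Cdh23, Cadm4, Itga3 or Mcam. Others are marked where named. The members, lists and rules were chosen with earlier results of these data known. Alternatives varied the libraries needed, gap, cluster size, list length, signal threshold, signal measure and left-out library. The 3 wild-type libraries were not analysed here. Some results that the naming rule covers are not reported here.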

Additional observations from a re-analysis of the deposited data

How the results depend on the processing

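The number of clusters and of their regions depended on each threshold. Requiring 3 of 6 libraries gave 279 clusters with 1451 regions, a gap of 5 kb 228 with 1166, and a gap of 25 kb 1005 with 6823. Clusters of 3 or more regions numbered 1247, and those of 6 or more 222 with 1846 regions. Lists of equal length gave 202 clusters with 1038 regions, and a common threshold on total signal 393 with 2100. Leaving out a library gave 316 to 606 clusters with 1673 to 3440 regions. The clusters without overlap between groups, 27 higher and 23 lower in +dox, numbered 9 and 11 with lists of equal length, 16 and 37 by the highest maximum, 4 and 160 by signal per base, and 32 to 57 and 32 to 54 when a library was left out. With lists of equal length 4.46% of clusters were higher in +dox, against 2.07% of all joined stretches, and 5.45% lower against 3.78%. By the highest maximum these shares were 2.49% against 3.42% and 5.76% against 5.81%. By signal per base they were 0.623% against 3.59% and 24.9% against 7.13%. With a library left out they were 6.06 to 16.8% against 5.53 to 18.1%, and 5.35 to 17.1% against 7.55 to 14.04%. The clusters with more regions in the +dox consensus numbered 63 with lists of equal length and 60 to 463 when a library was left out, and those with more in the no dox consensus 21 when any library of a group sufficed and 6 to 207 when a library was left out. A group left with 2 libraries needed both for its consensus, so the groups then had unequal thresholds. The share of cluster regions called reversed to −2.63 percentage points with lists of equal length. Away from promoters the CAGCTG difference reversed to −5.14 and the GC difference to 2.23 percentage points. The cause was not tested. Without chromosomes 8 and 15, added after seeing the data, 495 clusters with 2595 regions were left and the CAGCTG difference was 4.96 percentage points in 6 of 6 libraries.

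With the replicate number as a block, 1 region passed in limma, lower in +dox and outside clusters. Regions at an unadjusted p under 0.05 then numbered 627, against 124 without the block. Over the pairs, the differences in the share called, in that share relative to other regions and in the signal share were 11.1, −8.28 and −3.55, given with no test. The block changed no other call. Of 143 values recomputed under alternatives, 100 were labelled the same, 40 moved and 3 reversed. For counts, the same meant a change of at most 1.5 times. For differences it meant the same sign only, whatever the size. The difference in the share called, for example, kept its sign but fell from 11.1 to 1.82 without +dox replicate 3. The library with the greatest depth and the longest list, +dox replicate 3, took part in 93.0% of cluster regions called in 2 libraries, and the part of depth in this was not tested.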
